A study of Saccharomyces cerevisiae with 11 samples.

Results

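The double mutant R11ΔS15 of budding yeast (*Saccharomyces cerevisiae*) carries histone H2A with an arginine inserted at position 11 of its N-terminal tail and without serine 15. In the study's numbering, position 11 follows the human H2A sequence and serine 15 the yeast sequence. The 2 arrays of R11ΔS15, of 11 in the series, were set against the 3 arrays of WT, both as a pair and each alone. Every one of 5415 genes with a signal above background was compared. WT and R11ΔS15 share a Mata strain with the alleles hta1-1, hta2-1, ura3-52 and his3, in which both chromosomal H2A genes are described as deleted and a centromeric HIS3 plasmid with HTA1 supplies H2A. In WT the plasmid gene is unchanged, and in R11ΔS15 it carries both changes. The study's text notes that strains with H2A from 1 plasmid gene, WT included, show a cell cycle profile of altered H2A dosage, so that WT is a control for the plasmid but not a strain with native H2A genes. Poly(A) RNA came from log phase cultures in YPD, a rich medium with glucose. The labels do not say whether the arrays of a strain came from separate cultures. For its correlations between strains, the study's text gives averages of at least 2 experiments. The p-values, standard errors and intervals below measure only the spread between arrays of the same strain, taken over all 11 arrays of the series. The technical part of this spread was not tested. The R11ΔS15 arrays differ from each other over chromosome IX, as described further down. The comparison asks whether the altered tail changes transcript levels.

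Histone H2A is 1 of the proteins around which DNA is wound in the nucleosome, and its N-terminal tail reaches out of the particle, where its basic residues can meet DNA or neighbouring nucleosomes. Changes in chromatin can alter transcription of single genes or of many at once. In yeast, transcripts for building ribosomes are made in proportion to growth, whereas transcripts for stress defence, stored carbohydrates and respiration are held low while glucose is plentiful.

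The mutagenic primers show what the strain names stand for. They are printed because the deposited labels disagree: titles, source names and the study's strain list give arginine for R11ΔS15, whereas the genotype entry of both R11ΔS15 samples gives lysine. Capitals mark the inserted codon at position 11 (AGA for arginine, AAA for lysine) and the codon TCT of serine 15 where it is kept. The target is HTA1 on chromosome IV, bases 915530 to 915928 of the R64 assembly.
R11_f: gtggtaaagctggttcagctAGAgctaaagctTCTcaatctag
R11ΔS15_f: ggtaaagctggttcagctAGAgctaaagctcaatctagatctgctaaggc
K11ΔS15_f: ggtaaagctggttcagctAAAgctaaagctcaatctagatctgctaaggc
The R11_f primer keeps the serine codon, and the other 2 lack it. Counted from 1 at the 5′ end, the R11ΔS15_f and K11ΔS15_f primers differ by G20A alone, so that an arginine and a lysine strain differ in 1 base here. Arginine is used below, as in the titles. The array probes cannot settle the residue, since the signal is a transcript level.

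The deposited values are MAS5 signals on a linear scale, in which every array had a trimmed mean of 499.8, and a background of 5.09 was taken from probe sets of another yeast, *Schizosaccharomyces pombe*. Between 5456 and 5466 of 5498 *S. cerevisiae* probe sets lay above it on each array. The spike-in controls divided the arrays: WT replicates 1 and 2 had mean log2 signals of 10.98 and 10.92, whereas WT replicate 3 had 10.66 and the R11ΔS15 arrays 10.64 and 10.63. The 3′ to 5′ signal ratio of ACT1, a measure of RNA integrity and labelling, was 1.26 on WT replicates 1 and 2, 1.11 on WT replicate 3, and 1.09 and 1.10 on the R11ΔS15 arrays. WT replicate 3 is therefore the only WT array that resembles the R11ΔS15 arrays in the spike-in level and the ACT1 ratio. The parts of strain and array set in a difference from WT replicates 1 and 2 cannot be told apart. The 3′ to 5′ ratio of TDH1 divided the arrays in the same way by a narrow gap, with 1.49, 1.73 and 1.42 in WT and 1.14 and 1.38 in R11ΔS15. On this ratio WT replicate 3 was close to WT replicate 1 as well as to R11ΔS15 replicate 2. The mating type markers matched the Mata label. STE2, the alpha-factor receptor that a-cells make, had 4312, 4183 and 4375 on the WT arrays and 4192 and 4002 on the R11ΔS15 arrays. STE3, the a-factor receptor of alpha-cells, had 169 to 207 on the WT arrays and 224 and 130.0 on the R11ΔS15 arrays. The alpha-factor gene MF(ALPHA)1 had at most 61.3 on any of the 5. Both genes thus lay above the background of 5.09 in Mata cells, in the range of the dimmer genes named below. Of the a-specific and alpha-specific genes, 7 and 4 were tested, and 0 differed from WT without overlap.

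No gene passed limma's test in R11ΔS15 against WT (0 of 5415, 0%, with a Benjamini-Hochberg threshold of 0.05). Before adjustment, 544 genes had a p under that level, 235 higher and 309 lower. The smallest adjusted p of limma was 0.324, for the stress gene DDR2, and over all genes the standard error of the estimate had a median of 0.16. Estimates lay above WT for 2727 genes (50.4%) and below it for 2688 (49.6%), and 97.3% lay within 1.5-fold of WT. A fold change of 2 or more was reached by 11 genes on the higher side (0.203%) and 2 on the lower side (0.0369%), and 7 of these 13 had a mean signal of at least 50. Single arrays weighed on these counts: with WT replicate 3 left out, 128 genes passed limma's test and 44 were past 2-fold, and the 2-fold count was 4 without WT replicate 1 and 88 without R11ΔS15 replicate 1. The RNA came from whole cultures, so that fewer cells in a given state and less RNA per cell cannot be told apart. A gene is called here clear of WT when both R11ΔS15 arrays lie above, or both below, all 3 WT arrays. There were 574 genes clear above WT (10.6%) and 681 clear below (12.6%), and these shares are the background for every list below. Being clear is an order of the arrays and not a test. With so few arrays, a gene can be clear of WT without a difference between the strains. Clear genes that also differed by 1.5-fold or more numbered 69 above WT and 24 below.

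The R11ΔS15 arrays differed in how far they lay from WT. R11ΔS15 replicate 1 was 2-fold or more from the WT mean at 18 genes, 11 higher and 7 lower. R11ΔS15 replicate 2 was so at 88 genes, 73 higher and 15 lower, and 51 of the 73 lie on chromosome IX, described further down. Only 7 genes were 2-fold higher on both arrays, 4 of them with a mean signal of at least 50, and 0 were 2-fold lower on both.

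WT replicate 3 was often the WT array nearest to R11ΔS15. Of the genes clear above WT, 64.8% had it as the highest WT array, where 47.6% of all tested genes did. Of the genes clear below WT, 53.6% had it as the lowest WT array, where 26.2% of all tested genes did.

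HXK1 and DIP5 stood furthest above WT among the clear genes with a mean signal of at least 50. HXK1 encodes a hexokinase, which phosphorylates sugar on entry and is kept low in glucose. Its signals were 793, 387 and 1243 on the WT arrays and 2149 and 2023 on the R11ΔS15 arrays, a log2 fold change of 1.52 (standard error 0.37, 95% interval 0.71 to 2.34). The WT arrays spread over more than 3 times from lowest to highest, with replicate 3 on top, and the R11ΔS15 arrays lay close together. DIP5, a permease for glutamate and aspartate, had 485, 512 and 835 in WT and 1384 and 1388 in R11ΔS15, a log2 fold change of 1.23 (standard error 0.24). DDR2, whose transcript is made under many stresses, had 358, 386 and 503 against 784 and 913 (log2 fold change 1.04, standard error 0.17). In HXK1, DIP5 and DDR2 alike, WT replicate 3 was the WT array nearest to R11ΔS15, and both R11ΔS15 arrays lay above it by more than 1.5-fold. The uncharacterized gene YJL163C had 120.5, 114 and 227 against 282 and 313.

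The next 8 higher genes had log2 fold changes of 0.88 to 0.96. Among them are CUR1, which helps to sort misfolded proteins (174, 133 and 236 in WT, 296 and 369.9 in R11ΔS15), and NCE103, the carbonic anhydrase gene (2407, 3686 and 4385 against 5602 and 7144). PHD1, a transcription factor of filamentous growth, had 636, 914 and 856 against 1310.1 and 1633. TMA10, which encodes a ribosome-associated protein, had 177, 134 and 259 against 300.2 and 385. For CUR1, NCE103, PHD1 and TMA10, R11ΔS15 replicate 2 was the higher of the pair. YPS6, an aspartic protease of the cell surface, had 233, 240.0 and 317 against 396 and 645, and SDP1, a phosphatase of the cell wall MAP kinase, had 179, 118 and 208 against 262 and 374. YPS6 and SDP1 lie on chromosome IX, where replicate 2 was raised as a whole. The uncharacterized genes YLR108C (311, 374 and 516 against 561 and 971) and YJL107C (20.6, 61.4 and 48.6 against 64.8 and 90.2) complete the group, and on replicate 1 YJL107C was barely above the highest WT array. WT replicate 3 was the highest WT array for 10 of these 12 genes. None of the 12 passed limma's test over all genes (adjusted p 0.324 to 0.523), and without WT replicate 3, which leaves only WT arrays of the other spike-in level, 6 of them did.

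**Figure D1:**
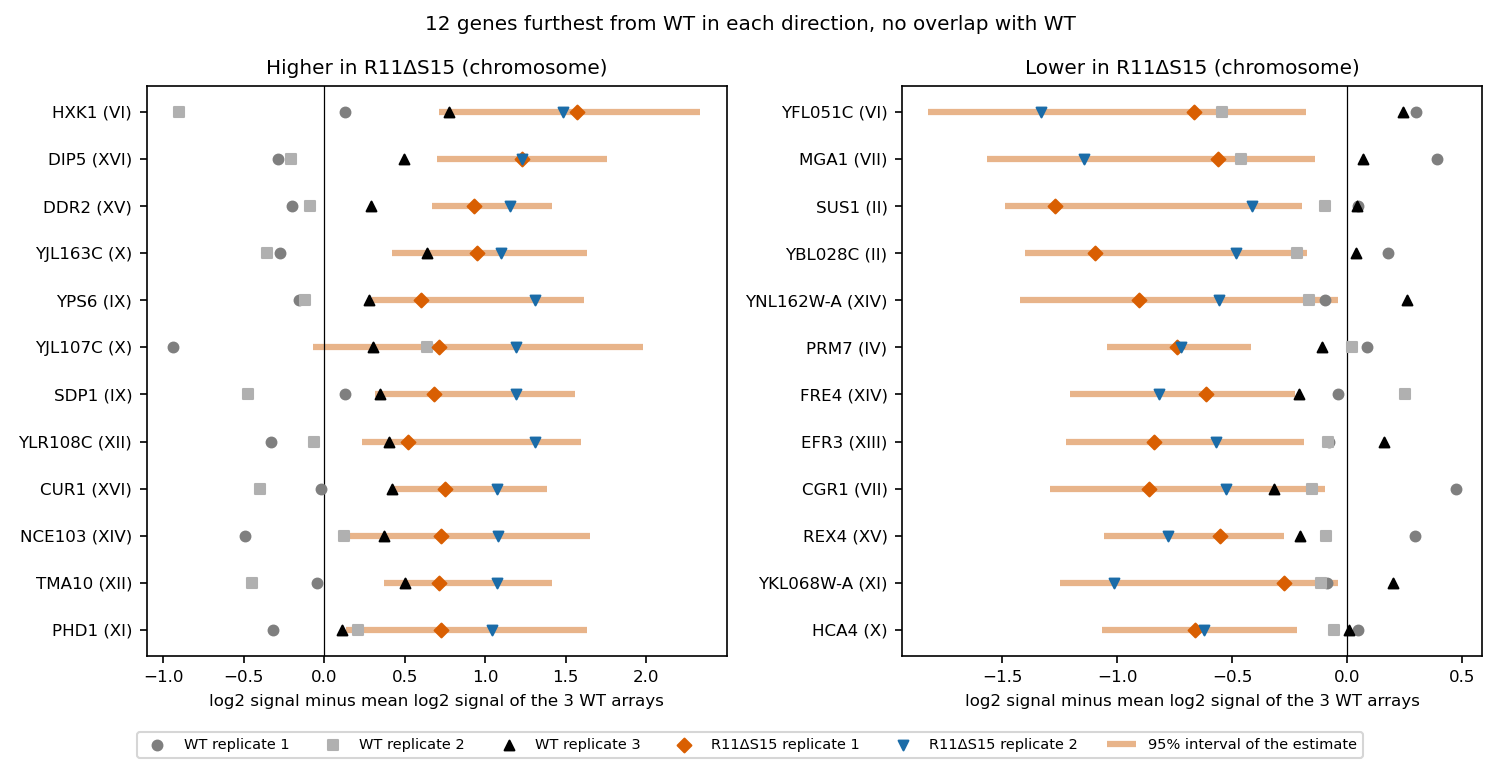
Each row is a gene with its chromosome, and each symbol is the log2 signal of 1 array minus the mean of the 3 WT arrays, with bars for the 95% interval of limma's estimate. The panels hold the 12 genes furthest above and the 12 furthest below WT among genes clear of WT with a mean signal of at least 50, and WT replicate 3 (black triangle) is the highest WT array for 10 of the 12 higher genes.

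On the lower side no gene with a mean signal of at least 50 reached 2-fold on both arrays, and every estimate of the 12 leading genes was -0.64 or lower. YFL051C, an uncharacterized gene, had 257, 144 and 248 in WT and 132 and 83.1 in R11ΔS15. MGA1, a gene of filamentous growth, had 112, 61.9 and 89.5 against 57.9 and 38.5. For YFL051C and MGA1, WT replicate 2 was near R11ΔS15 replicate 1, so that the groups only just failed to overlap. SUS1, a subunit of the SAGA coactivator and of the mRNA export complex TREX-2, had 255, 231 and 254 against 102 and 185 (log2 fold change -0.84, standard error 0.29). Its WT arrays were close together, and R11ΔS15 replicate 1 was the lower of the pair by a wide margin.

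PRM7, a gene regulated by mating pheromone, had the brightest values and the smallest standard error of the lower group. Its signals were 4215, 4024 and 3672 in WT and 2373 and 2405 in R11ΔS15, a log2 fold change of -0.73 (standard error 0.14, 95% interval -1.05 to -0.42). The gap between the lowest WT array and both R11ΔS15 arrays was larger than the range of either strain. Without WT replicate 3, PRM7 was the only gene of the lower 12 to pass limma's test (adjusted p = 0.0424).

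CGR1, REX4 and HCA4, also among the lower 12, are linked to the processing of ribosomal RNA. CGR1, which encodes a nucleolar protein, had 979.8, 636 and 566 in WT and 389 and 491 in R11ΔS15. REX4, a putative exonuclease, had 988, 757 and 699 against 549.9 and 469. HCA4, the DEAD-box helicase gene also called DBP4, which acts in making the small subunit RNA, had 493, 459 and 480.1 against 302 and 310.3 (log2 fold change -0.64, standard error 0.19). HCA4 was flat within each strain, whereas WT replicate 1 was high for CGR1 and REX4. The rest of the 12 were FRE4, a ferric reductase gene (345, 422 and 306 against 232 and 201), EFR3, which anchors a phosphoinositide kinase at the plasma membrane (386, 385 and 455 against 228 and 274), and YBL028C, YNL162W-A and YKL068W-A, with log2 fold changes of -0.79, -0.73 and -0.64. The adjusted p of the 12 was 0.449 to 0.471.

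Genes that build ribosomes lay below WT almost throughout. The SSU processome is the large particle that processes the precursor of the small subunit RNA, and all 58 of its tested members had estimates below WT, at a median log2 fold change of -0.32, where the median over all tested genes was 0.00. Of these, 39 (67.2%) were clear below WT, against 12.6% of all genes, and 0 were clear above. The medians on single arrays were -0.33 and -0.28 for R11ΔS15 replicates 1 and 2 and 0.05, 0.01 and -0.02 for WT replicates 1 to 3. The R11ΔS15 values were far apart from all 3 WT values, replicate 3 included, and against WT replicate 3 alone the median was -0.29, where it was -0.05 over all tested genes, with 55 of 58 members lower. PWP2, a scaffold subunit, had 1319.8, 1192 and 1198 in WT and 733 and 866 in R11ΔS15 (log2 fold change -0.63, standard error 0.19). MRD1, an RNA-binding member, had 1008, 1089 and 1055 against 628 and 758 (-0.61, standard error 0.17). In PWP2, MRD1 and HCA4 the difference between strains exceeded the range within either, and 0 of the 58 passed limma's test.

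Assembly factors of the large subunit showed the same size of difference. Of 66 tested members, 64 had estimates below WT and 51 (77.3%) were clear below, with a median log2 fold change of -0.32. Their medians on the arrays were -0.31 on both R11ΔS15 replicates, and 0.07, -0.01 and -0.07 on the WT arrays. NOG1, a GTPase of early large subunit particles, had 2506, 2656 and 2041 in WT and 1539.6 and 1689 in R11ΔS15 (log2 fold change -0.57, standard error 0.13). RRP8, a methyltransferase of ribosomal RNA, had 1057, 1012 and 988 against 720.1 and 676, and MAK16 had 575, 456 and 501 against 337 and 367. For NOG1 the WT arrays split, with replicate 3 nearest to R11ΔS15, but for RRP8 and MAK16 they did not. Against WT replicate 3 alone the median of the list was -0.21, with 64 of 66 members lower. None of the 66 passed limma's test.

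The list of RNA polymerases I and III, which make ribosomal and transfer RNA, includes the activating factor UAF30 beside subunits. The median of the list was -0.20, with 25 of 27 members lower and 9 (33.3%) clear below. RPC25 of polymerase III had 1387, 859.7 and 689.8 in WT and 704 and 670.3 in R11ΔS15, so that its estimate of -0.45 came from WT replicates 1 and 2 and the strains overlapped. UAF30, a factor that activates polymerase I, had 250.4, 212 and 251 against 194 and 160.1. RET1, the second largest subunit of polymerase III, had 2595, 2531 and 1902 against 1573 and 1926, again with overlap at WT replicate 3. Of the 3, only UAF30 was clear of WT. Against WT replicate 3 alone the list had a median of -0.12, with 21 of 27 lower.

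Cytosolic ribosomal protein genes were lower by less. For the large subunit, 71 of 75 tested members had estimates below WT and 37 (49.3%) were clear below, and for the small subunit the numbers were 49 and 30 of 52 (57.7%). Both lists had a median log2 fold change of -0.15, which is 1.11-fold higher in WT. RPS15 had 11295, 12125 and 8792 in WT and 8734 and 8432 in R11ΔS15 (log2 fold change -0.31, standard error 0.11), and RPL36A had 6993, 7454 and 5074 against 5187 and 5504. In RPS15 and RPL36A WT replicate 3 was level with R11ΔS15, and for RPL36A it was the lowest of the 5. RPS16A, read by a probe set shared with other transcripts, had 6223, 6502 and 6345 against 5347 and 5317, with replicate 3 among the other WT arrays. The remaining members with the largest estimates, RPL41A, RPL4A and RPS29A, were read by shared probe sets as well. RPL41A (157, 147 and 133 in WT, 95.9 and 155 in R11ΔS15) overlapped, while RPL4A and RPS29A were clear below. Against WT replicate 3 alone the medians were -0.04 and -0.05. These genes are among the brightest on the array, and bright genes outside the lists of ribosomal proteins, glycolysis and translation factors were also lower: of 143 such genes among the brightest 5%, 122 had estimates below WT, with medians of -0.07 and -0.11 on the R11ΔS15 arrays and -0.09 on WT replicate 3. With quantile normalization the ribosomal protein medians were -0.02 and -0.01. The part of brightness in the result was not tested.

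Translation factors had a median of -0.11, with 27 of 36 lower and 10 (27.8%) clear below, and against WT replicate 3 alone the median was -0.06. ANB1, the isoform of initiation factor eIF5A made without oxygen, had 1146, 779.9 and 889 in WT and 855 and 447 in R11ΔS15, so that only replicate 2 was low. NIP1, a subunit of initiation factor eIF3, had 1882, 2209.7 and 2189 against 1425 and 1829.6, and the eIF4G gene TIF4632 had 486, 493 and 604 against 391 and 482. NIP1 and TIF4632 were clear below WT, with R11ΔS15 replicate 1 the lower of the pair in both.

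Mitochondrial ribosomal protein genes were on the other side. Of 69 tested members, 58 had estimates above WT, 19 (27.5%) were clear above against 10.6% of all genes, and the median was 0.12. The medians were 0.11 and 0.13 on the R11ΔS15 arrays and -0.02, -0.09 and 0.08 on the WT arrays, and against WT replicate 3 alone the median was 0.04. MRP1 had 741, 653 and 874 in WT and 1003 and 1265 in R11ΔS15 (log2 fold change 0.59, standard error 0.17), and NAM9 had 334, 483 and 567 against 681 and 579.9. RSM25, on chromosome IX, had 373, 320.1 and 354 against 375 and 724, so that its estimate of 0.58 came mostly from replicate 2.

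**Figure D2:**
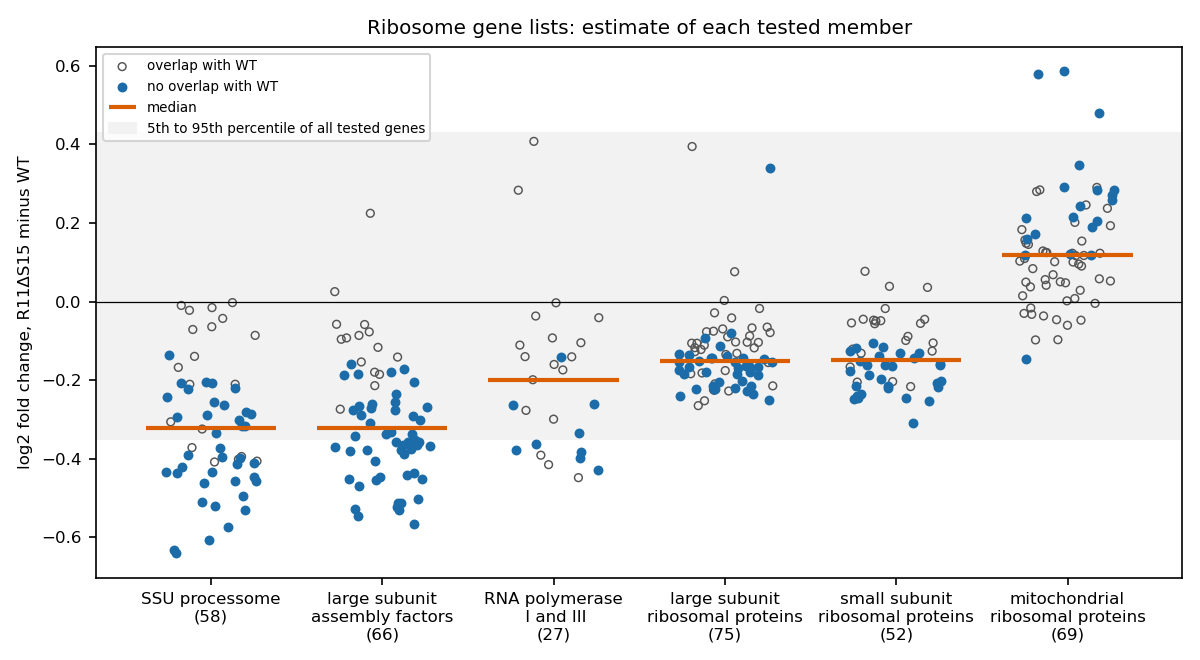
Each point is the log2 fold change (R11ΔS15 minus WT) of 1 tested gene, filled where the arrays of the strains do not overlap, with the median of each list as an orange line. The grey band spans the 5th to 95th percentile of all tested genes, -0.35 to 0.43, and the SSU processome and large subunit assembly lists have medians of -0.32, near its lower edge.

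Carbon metabolism differed by pathway. All 4 genes of the hexokinase family had estimates above WT, and 3 were clear above. EMI2, a paralog of glucokinase, had 849, 899 and 1311 in WT and 1684 and 1534 in R11ΔS15 (log2 fold change 0.68, standard error 0.18). Glucokinase gene GLK1 had 4028, 3916 and 4217 against 4582 and 4688, a log2 fold change of 0.19. HXK2, the hexokinase gene used in glucose, had 4162, 5364 and 4948 against 5148 and 5107, and the groups overlapped. Of 19 hexose transporter and sensor genes, 1 was clear above and 1 clear below WT, and their median was -0.07.

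Glycolysis genes were lower by little. Of 13 tested members, 12 had estimates below WT and 9 (69.2%) were clear below, with a median log2 fold change of -0.23. TPI1 had 9566, 10080.4 and 8545 in WT and 7991 and 7602 in R11ΔS15 (log2 fold change -0.27, standard error 0.07). PGK1 had 9306, 10517 and 7908 against 7605 and 7701, and TDH1 had 4169.8, 3328 and 3391 against 3093 and 2878. TPI1 and PGK1 are as bright as the ribosomal protein genes, with WT replicate 3 the lowest WT array, and the list had a median of -0.08 against WT replicate 3 alone and of -0.07 with quantile normalization. The next steps, from pyruvate to ethanol and acetate, had a median of 0.05 over 12 genes (-0.04 against WT replicate 3 alone), with 1 clear above and 1 clear below. The clear gene above was ALD4, the mitochondrial aldehyde dehydrogenase gene, with 1068, 1771 and 1536 against 2029.5 and 1850.1.

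The TCA cycle was on the higher side. Of 17 tested members, 16 had estimates above WT and 8 (47.1%) were clear above, with a median log2 fold change of 0.32. The medians were 0.41 and 0.26 on the R11ΔS15 arrays and -0.15, -0.04 and 0.17 on the WT arrays. The list thus ordered the arrays with WT replicate 3 between the other WT arrays and R11ΔS15, and against WT replicate 3 alone its median was 0.10, with 16 of 17 members higher. CIT1, the citrate synthase gene of the cycle, had 1609.6, 1651 and 2349 in WT and 3369 and 3176 in R11ΔS15 (log2 fold change 0.83, standard error 0.18). SDH2, a subunit of succinate dehydrogenase, had 531, 508 and 731 against 901 and 846. SDH1, its partner subunit, had 419, 551 and 824 against 909.9 and 819, where WT replicate 3 lay between the R11ΔS15 arrays.

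Retrograde genes, which respond to the state of mitochondria, gave the largest list median beside the hexokinases. The targets CIT2, DLD3 and PDH1 were each clear above WT, and the median over 7 tested genes, regulators included, was 0.38, with 6 higher. CIT2, the peroxisomal citrate synthase gene, had 1392, 1092 and 1612 in WT and 1987 and 2763 in R11ΔS15 (log2 fold change 0.80, standard error 0.18). PDH1, a gene of the propionate pathway, had 160.5, 269 and 360.2 against 515 and 399. DLD3, a dehydrogenase gene, had 984, 1112 and 1944 against 2027 and 2379.9. WT replicate 3 was close below R11ΔS15 replicate 1 for DLD3 but not for CIT2, and the list had medians of -0.20, -0.10 and 0.35 on the WT arrays against 0.56 and 0.55 on the R11ΔS15 arrays. Against WT replicate 3 alone the median was 0.06.

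Respiratory chain and ATP synthase genes, 38 in number, had 36 estimates above WT and 17 (44.7%) clear above, with a median of 0.16. The medians were 0.13 and 0.23 on the R11ΔS15 arrays and 0.06, -0.07 and 0.01 on the WT arrays, so that WT replicate 3 was among the other WT arrays, and against it alone the median was 0.15 with 34 of 38 higher. CYT1, the cytochrome c1 gene, had 802, 875 and 1211 in WT and 1563 and 1502 in R11ΔS15 (log2 fold change 0.69, standard error 0.22). INH1, an inhibitor of the ATP synthase, had 601, 593 and 645 against 881 and 1084. NDI1, the NADH dehydrogenase gene, had 172, 193 and 416 against 408 and 529, where WT replicate 3 overlapped with R11ΔS15. None of the genes of the carbon lists passed limma's test.

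Genes for growth on non-fermentable carbon were divided. The glyoxylate cycle and gluconeogenesis list had 9 of 18 genes above and 9 below WT, with medians of 0.21 on R11ΔS15 replicate 1 and -0.13 on replicate 2. Its median of 0.06 was -0.03 against WT replicate 3 alone. Of the 18 genes, 0 were clear below WT and 4 (22.2%) were clear above, against 10.6% of all genes. These 4 included the regulator ADR1 (79.0, 121 and 149.5 in WT, 150.4 and 178 in R11ΔS15), the cytosolic isocitrate dehydrogenase gene IDP2 (181, 206 and 197 against 264 and 262) and the acetate transporter gene ADY2 (31.0, 43.7 and 40.7 against 57.2 and 45.8). IDP2 had the most even values within each strain, and ADR1 was level with WT replicate 3 on R11ΔS15 replicate 1.

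**Figure D3:**
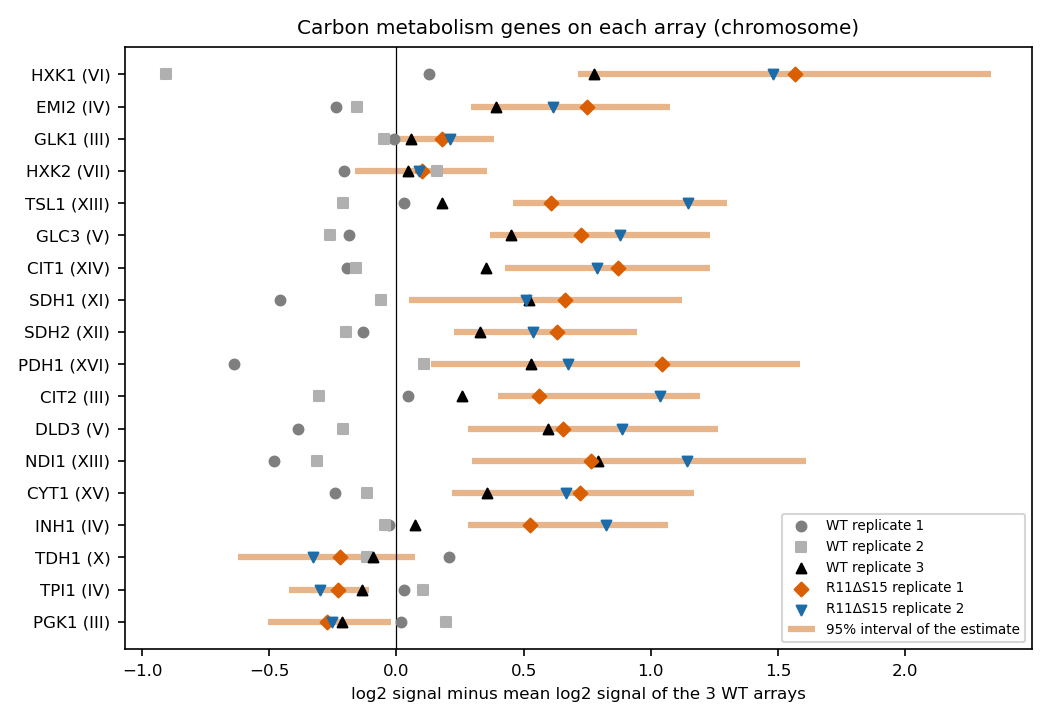
Rows are carbon metabolism genes with their chromosome, and each symbol is the log2 signal of 1 array minus the mean of the 3 WT arrays, with bars for the 95% interval of limma's estimate. Hexokinase, storage carbohydrate, TCA cycle, retrograde and respiratory genes lie to the right, with WT replicate 3 overlapping the R11ΔS15 arrays for SDH1 and NDI1, and the glycolysis genes TDH1, TPI1 and PGK1 lie to the left.

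General stress genes, which yeast makes under many kinds of stress, had 29 of 39 estimates above WT and 13 (33.3%) clear above, with a median of 0.15. The medians were 0.20 on R11ΔS15 replicate 1 and 0.07 on replicate 2, against -0.04, -0.03 and 0.05 on the WT arrays, so that replicate 2 was near WT replicate 3. The leading members were DDR2, TMA10 and HSP42. HSP42, a small heat shock protein gene, had 1029, 639.8 and 1015 in WT and 1641 and 1496 in R11ΔS15 (log2 fold change 0.84, standard error 0.24), and here WT replicate 3 was no higher than WT replicate 1. Genes of trehalose and glycogen, the stored carbohydrates, had 17 of 21 estimates above WT, 7 (33.3%) clear above and a median of 0.19. TSL1, a subunit of trehalose synthase, had 762, 646 and 847 against 1138 and 1655 (log2 fold change 0.88, standard error 0.19). GLC3, the glycogen branching enzyme gene, had 254, 241 and 394 against 477 and 531. PIG2, a phosphatase regulator on chromosome IX, had 345, 241 and 267 against 318 and 582, so that it was high on replicate 2 alone. TSL1 was clear above WT by more than the range of the WT arrays and GLC3 by less, with WT replicate 3 the highest WT array in both.

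Heat shock chaperone genes had a median of 0.16, with 14 of 20 above WT, 5 (25.0%) clear above and 2 clear below. The mitochondrial chaperones led: HSP78 had 152, 192 and 274 in WT and 308 and 280.1 in R11ΔS15, and MDJ1 had 898, 911 and 1174 against 1415 and 1359.7. SSA3, a stress-induced cytosolic HSP70 gene, had 455, 809 and 1144 against 1055 and 973, so that WT replicate 3 was the highest of the 5 arrays. Against WT replicate 3 alone the chaperone median was 0.02.

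Among nitrogen and sulfur genes, permease and methionine genes had most estimates above WT, and amino acid biosynthesis genes did not. Of 21 amino acid permease genes, 14 had estimates above WT, with 3 clear above and 2 clear below (median 0.14, with 0.24 on WT replicate 3 itself and -0.02 against that array alone). Beside DIP5, the general permease gene GAP1 was clear above, with 192, 266 and 282 in WT and 306 and 319 in R11ΔS15, while the methionine permease gene MUP1 overlapped (329, 729 and 936 against 1024 and 907). Of 60 amino acid biosynthesis genes, 29 lay above and 31 below WT, with a median of 0.00. Sulfate assimilation and methionine genes had 19 of 24 above WT and 3 (12.5%) clear above, with a median of 0.10. Against WT replicate 3 alone the median was 0.03, with 14 of 24 higher. MET2 had 152, 161 and 235 against 272 and 330.4, and MET1 had 298, 356 and 423 against 530.1 and 479. MET28, a regulator on chromosome IX, had 161, 143 and 168 against 192 and 367, so that its estimate of 0.76 came mostly from replicate 2.

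Phosphate genes had 10 of 13 estimates below WT and 4 (30.8%) clear below, with a median of -0.17. PHM6 had 91.6, 102 and 101 in WT and 73.7 and 60.2 in R11ΔS15, the kinase inhibitor gene PHO81 had 808, 793 and 735 against 617 and 666, and the polyphosphate synthesis gene VTC4 had 2052, 2246 and 1923 against 1827 and 1658. The R11ΔS15 arrays of these 3 genes lay below WT replicate 3 as well. The phosphate list as a whole had medians of -0.06 and -0.22 on the R11ΔS15 arrays and -0.01, 0.07 and -0.08 on the WT arrays. On R11ΔS15 replicate 1 it was thus no lower than on WT replicate 3. Against WT replicate 3 alone its median was -0.12, with 10 of 13 lower. Iron genes had 15 of 19 above WT but 2 clear above, among them the heme oxygenase gene HMX1 (866, 664 and 771 against 912 and 1187), and their median of 0.15 was no higher than the 0.17 of WT replicate 3, against which it was -0.02. Of 24 ergosterol genes, 3 were clear above and 4 clear below, with HMG1, an HMG-CoA reductase gene, furthest from WT at 3031, 3301 and 2523 against 2063 and 2285.

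Of 7 core histone genes, 5 had estimates below WT and 3 (42.9%) were clear below, namely HTA1, HTA2 and HTB1. The median of the list was -0.11, and it was -0.02 against WT replicate 3 alone. HTA1, HTA2 and HTB1 are among the brightest 5% of genes, and the other core histone genes are not. Of the 143 bright genes described above, 122 had estimates below WT as well, with a median log2 fold change of -0.09. The part of brightness in the histone result was not tested. HTA1, the H2A gene of the plasmid in both strains, had 7643, 7548 and 7053 in WT and 6190.0 and 6838 in R11ΔS15, a log2 fold change of -0.19 (standard error 0.07, 95% interval -0.34 to -0.03). Both R11ΔS15 arrays were below all WT arrays, with replicate 1 the lower. The clear HTA2 value comes from the probe set with the suffix for shared probes, which had a log2 fold change of -0.31. The unshared one had 382, 311 and 302 against 277 and 376, with overlap. Whether the shared probe set reads the HTA1 transcript was not tested. On all 5 arrays the unshared probe set was far above the background of 5.09, although HTA2 is described as deleted in both strains. The source of this signal was not tested. HTB1, an H2B gene, had 7249, 6302 and 6144 against 6076 and 5787, clear below by a narrow margin on replicate 1. HTB2, the other H2B gene, HHT1, an H3 gene, and HHF1, an H4 gene with a shared probe set, had log2 fold changes of -0.05, 0.04 and -0.11, all with overlap. HHT2, an H3 gene, had 2969, 3141 and 2642 against 2979.6 and 4850.2, so that its estimate of 0.39 came from replicate 2. The interval of HTA1 excludes a loss of more than 0.34 on the log2 scale, with no adjustment for the number of genes.

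Apart from the core histones, lists for chromatin and the cell cycle had medians between -0.07 and 0.20. The highest, of the DNA damage genes, was 0.09 without RNR3, a ribonucleotide reductase gene on chromosome IX, and 0.02 against WT replicate 3 alone. Of 17 condensin, cohesin and topoisomerase genes, 9 lay above and 8 below WT, with 1 clear above and 2 clear below. The cohesin gene IRR1 on chromosome IX had 458, 499.6 and 413 in WT and 457 and 876 in R11ΔS15. Of 15 silencing factor genes, 1 was clear above and 2 clear below, with RAP1, which binds telomeres and ribosomal protein promoters, at 729, 891 and 677 against 595 and 660.2, and SIR3, a spreading silencing protein, at 385, 378 and 320.3 against 285 and 322. RAP1 was clear below by a narrow margin and SIR3 was not, with replicate 2 level with WT replicate 3. Nuclear pore genes had 21 of 33 below WT and 6 (18.2%) clear below, among them NUP145 with 1358, 1351 and 1212 against 1002 and 1104. Of 13 cyclin and mitotic regulator genes 1 was clear above, of 23 DNA replication genes 2 above and 1 below, of 9 DNA damage genes 3 above, RNR3 among them, and of 33 proteasome genes 6 above. The shares clear above WT were thus 7.69%, 8.70%, 33.3% and 18.2%, where it was 10.6% over all genes.

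**Figure D4:**
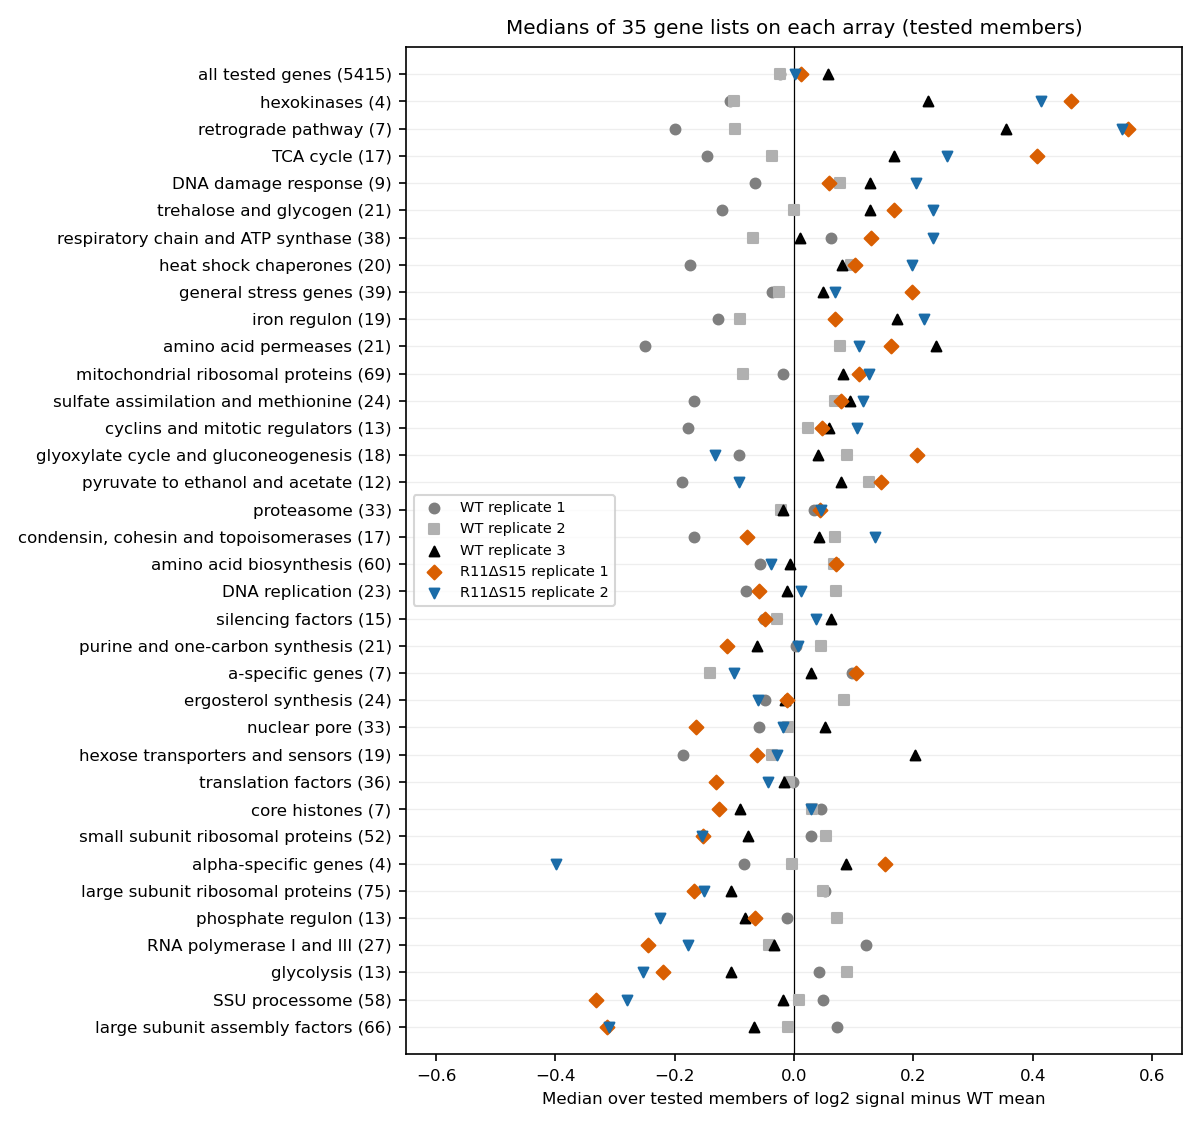
Each row is a gene list with its number of tested members, and each symbol is the median over members of the log2 signal on 1 array minus the mean of the 3 WT arrays. Both R11ΔS15 arrays lie at or below -0.28 for the SSU processome and the large subunit assembly factors, where the WT arrays lie between -0.07 and 0.07, and WT replicate 3 lies between the other WT arrays and R11ΔS15 for the TCA cycle and the retrograde pathway.

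Chromosome IX set the R11ΔS15 arrays apart from each other. Its 188 tested genes had a median log2 difference from the WT mean of 0.80 on R11ΔS15 replicate 2, which is 1.74-fold, and of -0.01 on replicate 1. On replicate 2, 181 of the 188 genes (96.3%) lay above the WT mean, and on replicate 1, 88 did. The medians of the other 15 chromosomes lay between -0.06 and 0.01 on replicate 2 and between -0.01 and 0.05 on replicate 1. Of the 574 genes clear above WT, 46 lie on chromosome IX, and of the 69 that also reached 1.5-fold, 22 do. The members on chromosome IX named above, YPS6, SDP1, RSM25, PIG2, MET28 and IRR1, were each higher on replicate 2 than on replicate 1. BAR1, an a-specific protease gene of this chromosome, had 1040.5, 1076 and 1489.8 in WT and 1283 and 2547 in R11ΔS15. The lists hold few such genes, and without them the medians were -0.32 for the SSU processome, 0.29 for the TCA cycle and 0.12 for the general stress genes, whereas the DNA damage list, with 1 such gene of 9, went from 0.20 to 0.09. With all genes of chromosome IX left out, limma's test still gave 0 genes and 12 were past 2-fold.

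**Figure D5:**
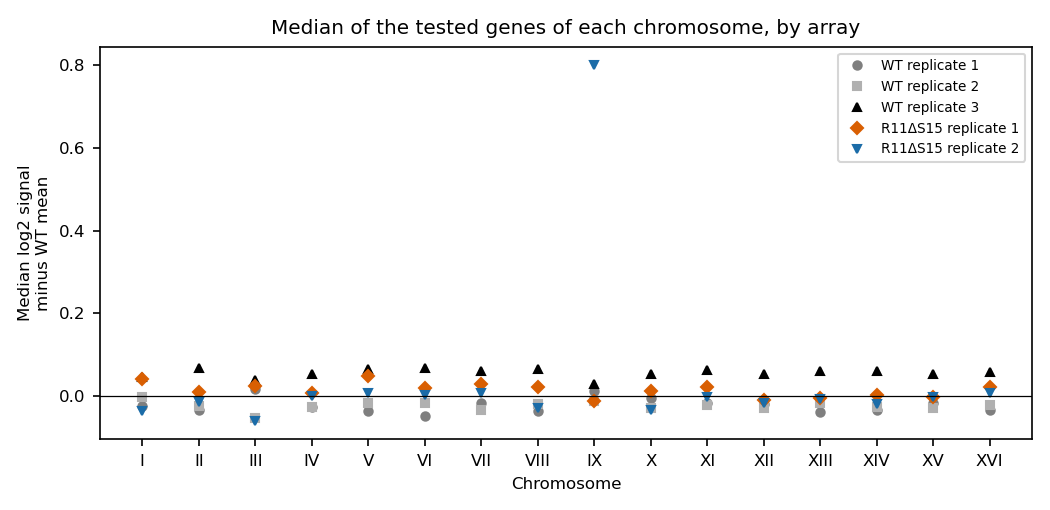
Each symbol is the median over the tested genes of a chromosome of the log2 signal on 1 array minus the mean of the 3 WT arrays. On R11ΔS15 replicate 2 chromosome IX lies at 0.80, where every other chromosome lies between -0.06 and 0.01, and on replicate 1 it lies at -0.01.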

How the data were processed

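The authors deposited MAS5 signals, intensities on a linear scale that a core facility had background-corrected, summarised per probe set and scaled. The MAS5 version is not given in the sources used here. Of 10928 probe sets, 213 controls and those without a single *S. cerevisiae* gene (RefSeq names, R64) were left out. Genes were kept when their brightest probe set exceeded a background of 2.35, the 95th percentile over 1746 *S. pombe* probe sets of their mean log2 signals, which left 5415, 111 of them read by a shared probe set. Log2 signals of all 11 arrays were fitted with limma 3.58.1 (R 4.3.3), with 1 coefficient per strain, a variance trend and Benjamini-Hochberg adjustment at 0.05. The fit was tested on simulated data. Each of 35 gene lists was described by its counts and median, and 25 listed genes had no tested probe set. The text names the 12 clear genes furthest from WT in each direction with a mean signal of at least 50, up to 3 leading members of a list, histones and mating type markers. HXK2 and the brightest 5% of genes were added after their values were seen. Members and lists were chosen with earlier results of these data known. Alternatives covered the log offset, normalization, probe set filters, samples in the fit, the replicate block, the spike-in level, chromosome IX and each array left out. Promoter motifs were not analysed here. Figures were drawn with matplotlib 3.10.9 (Python 3.11.15).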

Additional observations from a re-analysis of the deposited data

How the results depend on the processing

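The precision is limited by 2 arrays against 3. Limma's test gave 0 genes under every alternative except without WT replicate 3 (128) and with the replicate block (348), which sets WT replicate 3 aside. In both, spike-in level and strain cannot be told apart. Replicate numbers are not known to pair the arrays: deviations from the strain means correlated at 0.21 across genes for number 1 and at -0.05 for number 2. The deviations of the 2 R11ΔS15 arrays mirror each other, so that these correlations cannot decide whether the numbers pair cultures. The replicate block also gave 44 genes past 2-fold and a stress median of 0.23. With single arrays left out, limma's count ran from 0 to 128, the 2-fold count from 4 (without WT replicate 1) to 88 (without R11ΔS15 replicate 1), with 44 without WT replicate 3, and the count of clear genes from 1730 to 2764. By its definition the count of clear genes cannot fall when an array is left out, and it was 1255 with all arrays. The 2-fold count was 2 with 50 added before the log2 and 22 with no filter. The medians of 10 lists kept their direction under every alternative run. They ran from -0.33 to -0.28 (SSU processome), -0.35 to -0.27 (large subunit assembly), -0.20 to -0.12 (large subunit proteins), -0.20 to -0.13 (small subunit proteins), 0.08 to 0.18 (mitochondrial ribosome), 0.069 to 0.23 (stress), -0.31 to -0.17 (glycolysis), 0.26 to 0.41 (TCA cycle), 0.25 to 0.61 (retrograde) and 0.11 to 0.23 (respiration) with single arrays left out. Centred arrays gave -0.36 for the SSU processome. Quantile normalization gave -0.020 and -0.0091 for large and small subunit proteins and -0.073 for glycolysis. A term for the spike-in level, which leaves WT replicate 3 as the reference, gave -0.21 for large subunit assembly, -0.044 and -0.054 for large and small subunit proteins, 0.042 for the mitochondrial ribosome, 0.072 for stress, -0.077 for glycolysis, 0.10 for the TCA cycle and 0.062 for the retrograde list. Of the other 25 lists, 8 changed sign against WT replicate 3 alone, among them the permease (-0.020), iron (-0.021) and glyoxylate (-0.029) lists. Of the named genes, the spike-in term turned RPL36A to 0.074 and SSA3 to -0.18, and with single arrays left out the sign turned in 7: HXK2 from -0.0067 to 0.18, HHT1 from -0.11 to 0.20, RPL41A from -0.60 to 0.10, HTB2 from -0.13 to 0.029, HHF1 from -0.26 to 0.033, STE3 from -0.54 to 0.25 and MF(ALPHA)1 from -1.02 to 0.057. The causes were not tested.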
